A study of Mus musculus with 10 samples.

Results

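The genes for the Fc gamma receptors of the mouse and for proteins that work with them were followed in uteri in which *Arid1a*, a subunit gene of the SWI/SNF chromatin remodeling complex, was deleted in the endometrial epithelium. The 6 genes were chosen by name, as rows of the count table whose Ensembl identifier belongs to *Fcgr1*, *Fcgr3*, *Fcgr4*, *Fcgr2b*, *Fcer1g* or *Fcgrt*, among 45706 genes in all. All 6 were among the 25146 genes that averaged 1 count or more per library and were tested. RNA came from part of the uterus of 10 adult females at GD 3.5, the third morning after a vaginal plug was found, when the uterus prepares for implantation. The control group was 5 *Arid1a f/f* females and the other group 5 *Ltf iCre/+ Arid1a f/f* females, whose uteri are called deleted uteri here, all mated with wildtype males and all of a mixed background (C57BL/6 with 129P2/OlaHsd, 129S1/SvImJ and 129S6/SvEvTac). Both groups therefore carried the floxed *Arid1a* alleles, and they differed by the Cre allele at the lactoferrin locus, so effects of that allele and of the deletion cannot be told apart. The study's text describes *Ltf iCre* as active in the endometrial epithelium of the adult and mentions reported activity in neutrophils and other myeloid cells, which are also cells that bear Fc gamma receptors. The labels do not say which uteri came from the same litter.

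Fc gamma receptors are the surface proteins by which leukocytes bind the constant part of IgG. The activating receptors encoded by *Fcgr1* (CD64, of high affinity), *Fcgr3* (CD16) and *Fcgr4* signal through the common gamma chain, encoded by *Fcer1g*, whose ITAM motif recruits the kinase SYK, and they drive phagocytosis, the oxidative burst and cytokine release. *Fcgr2b* (CD32) encodes the inhibitory receptor, which carries an ITIM motif and recruits the phosphatase SHIP1. *Fcgrt* encodes FcRn, an MHC class I-like protein that pairs with beta-2 microglobulin, returns IgG and albumin from endosomes to the cell surface and is found in endothelium, epithelium and myeloid cells. In the uterus macrophages, monocytes, neutrophils and NK cells are the usual bearers of the activating receptors.

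Library depth was between 59296537 and 72702411 counts assigned to genes, and values are in CPM after TMM normalization of the library sizes. *Arid1a* itself lay between 192 and 251 CPM in control uteri and between 165 and 208 CPM in deleted uteri, with 4 of 5 below every control. *Ltf* was between 2.22 and 11.7 CPM in control uteri and between 23.6 and 2831 CPM in deleted uteri. Of all tested genes, 9.7% passed the threshold of 0.05 in the quasi-likelihood test of edgeR (adjusted by Benjamini-Hochberg), 5.19% higher and 4.51% lower in deleted uteri. Deleted replicate 5 stood apart in neutrophil markers. The summed level of 10 neutrophil markers in it was 1278 RPKM (CPM per kb of exon), against 13.04 to 25.7 RPKM in the other 4 uteri of its group and 3.79 to 27.1 RPKM in control uteri. The fold changes of the 6 genes are therefore also given without it. Deleted replicate 1 stood apart in other markers. Its epithelial marker sum was 772 RPKM against 376 to 530 RPKM in the rest of its group. Its NK cell marker sum was 11.0 RPKM against 26.4 to 55.8 RPKM. In whole tissue, fewer cells of a type and less RNA per cell cannot be told apart.

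In GRCm38, 4 of the genes lie within 276 kb of chromosome 1 and 2 lie elsewhere. *Fcgr2b* (ENSMUSG00000026656) spans chr1:170958617-170976547 on the minus strand, *Fcgr4* (ENSMUSG00000059089) chr1:171018920-171029761 on the plus strand, *Fcgr3* (ENSMUSG00000059498) chr1:171051174-171064935 on the minus strand and *Fcer1g* (ENSMUSG00000058715) chr1:171229572-171234365 on the minus strand. *Fcgr1* (ENSMUSG00000015947) spans chr3:96282909-96293969 and *Fcgrt* (ENSMUSG00000003420) chr7:45092990-45103851, both on the minus strand. From *Fcgr2b* to *Fcer1g*, 8 other genes were tested and 0 passed the threshold in edgeR's test (4 had an unadjusted p under 0.05 and 1 passed with DESeq2), with log2 fold changes from -0.62 to 1.51 and a median of 0.08.

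The 3 genes for activating receptors share a feature of their promoters, which is the reason their sequences are shown. The 250 bases before the start of each gene in the RefSeq promoter table were searched on both strands for GAGGAA, the core of many sites of PU.1, an ETS factor of myeloid cells, and for TTCNNNGAA, the form of sites bound by STAT factors. The GAGGAA core was found in *Fcgr1*, *Fcgr3* and *Fcgr4* as TTCCTC, beginning 55, 6 and 22 bases before the start, and not in the windows of *Fcgr2b*, *Fcer1g* and *Fcgrt*. RefSeq lists 2 promoters for *Fcgr3*, and in the other one the core begins 15 bases before the start. The *Fcgr3* window shown lies within the annotated span of the gene and holds 0 exonic bases in GENCODE. Of 32851 mouse promoters, 23.25% hold it in the same length. The STAT form was found in *Fcgr1* alone, 109 bases before the start, and in 7.02% of all promoters. The 150 bases before each start (RefSeq, GRCm38.p6) run 5′ to 3′ in the direction of the gene, with the matches in capitals, and the last 6 bases of *Fcgr4* are inside its first exon in GENCODE. The windows are chr3:96293970-96294119 for *Fcgr1*, chr1:171059404-171059553 for *Fcgr3* (both minus strand) and chr1:171018776-171018925 for *Fcgr4* (plus strand).
Fcgr1: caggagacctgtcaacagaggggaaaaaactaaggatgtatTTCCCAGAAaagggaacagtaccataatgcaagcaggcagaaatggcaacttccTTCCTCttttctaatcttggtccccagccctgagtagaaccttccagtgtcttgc
Fcgr3: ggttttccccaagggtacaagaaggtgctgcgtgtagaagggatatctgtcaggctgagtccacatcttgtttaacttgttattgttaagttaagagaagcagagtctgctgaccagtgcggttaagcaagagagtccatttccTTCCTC
Fcgr4: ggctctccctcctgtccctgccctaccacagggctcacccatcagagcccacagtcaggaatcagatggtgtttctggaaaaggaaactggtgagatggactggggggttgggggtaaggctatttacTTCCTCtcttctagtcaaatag
Such a match describes letters in a window and not a bound site, and no binding was measured here.

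*Fcgr3* and *Fcgr4* rose in deleted uteri, by 2.63-fold and 3.84-fold, *Fcgrt* fell to 0.696 of its control level, and *Fcgr1*, *Fcgr2b* and *Fcer1g* did not pass the test. Of the 6 genes 3 were thus called, 2 of them higher, where 9.7% of all tested genes were called and 5.19% called higher. The 5 and 5 values did not overlap for the same 3 genes, a pattern seen upward in 5.53% and downward in 5.16% of tested genes. The genes were chosen with earlier results of these data known, and several are correlated. These shares are therefore a description and not a test. The plot of expression by uterus shows each gene.

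**Figure D1:**
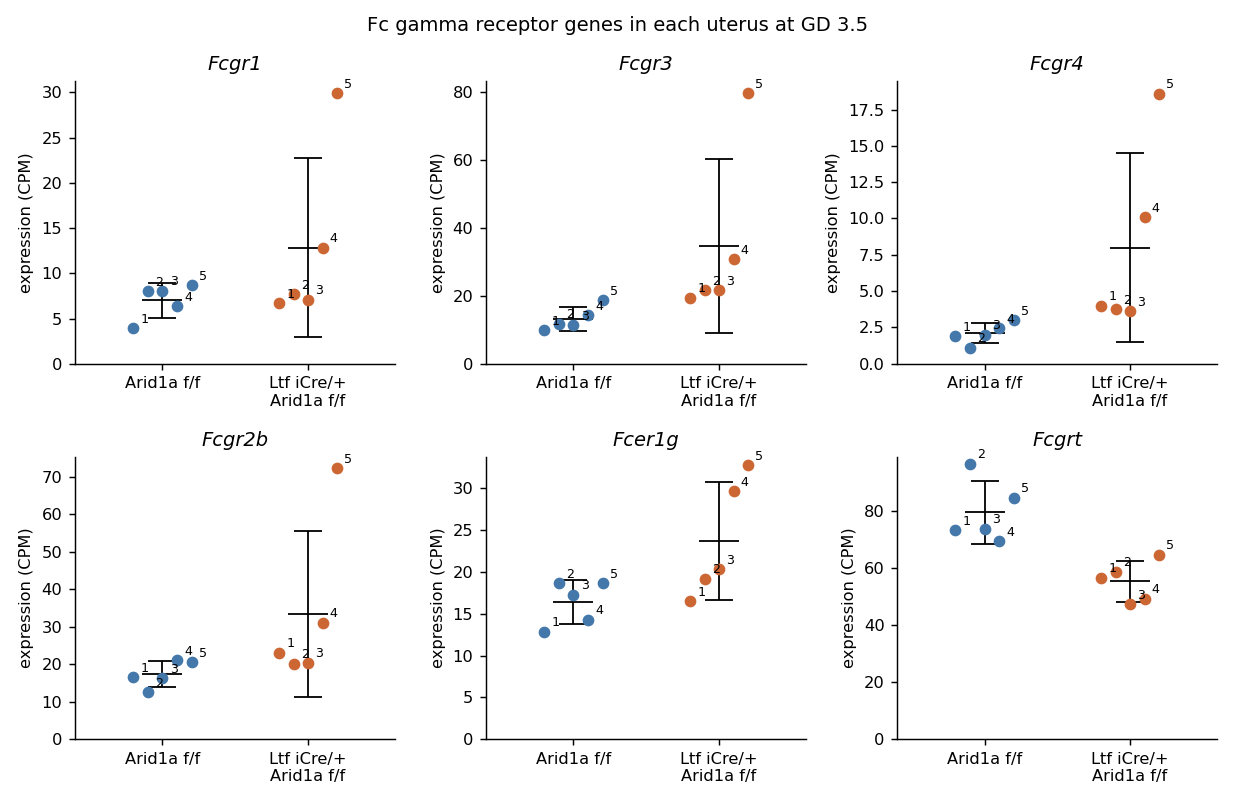
Expression (CPM, linear axis from 0) of the 6 genes in each uterus, with the replicate number beside each point and the mean and SD of 5 uteri in black. All 5 deleted uteri lie above every control for *Fcgr3* and *Fcgr4* and below every control for *Fcgrt*, and replicate 5 is the highest of its group for all 6 genes.

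*Fcgr3*, the CD16 of the mouse, stood at 9.86, 11.8, 11.3, 14.2 and 18.7 CPM in control uteri 1 to 5 and at 19.4, 21.6, 21.7, 30.8 and 79.7 CPM in deleted uteri 1 to 5. The lowest deleted value was just above the highest control, and replicate 5 was 3.68 times the median of replicates 1 to 3. The log2 fold change was 1.40 (standard error 0.38, 95% interval 0.56 to 2.23, adjusted p = 0.0411), and the exact permutation p was 0.00794, the smallest that 5 uteri against 5 allow (two-sided). Without replicate 5 the log2 fold change was 0.83 (adjusted p = 0.0261). The call was lost without any 1 of the 5 controls or without deleted replicate 4 (adjusted p = 0.0531 to 0.0990), while the log2 fold change was between 1.31 and 1.55 in those fits. Without replicates 4 and 5 together it was 0.65 (adjusted p = 0.0759).

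*Fcgr4*, whose product binds IgG2a and IgG2b complexes on neutrophils, monocytes and macrophages, stood at 1.90, 1.12, 1.99, 2.43 and 2.99 CPM in controls 1 to 5 and at 4.00, 3.73, 3.60, 10.1 and 18.6 CPM in deleted uteri 1 to 5. Replicates 1 to 3 lay close together, at 1.81 times the control mean on average, and replicates 4 and 5 were 2.699 and 4.98 times their median. The log2 fold change of 1.94 was the largest of the 6 (standard error 0.49, 95% interval 0.87 to 3.01, adjusted p = 0.0302, exact permutation p = 0.00794). It was 1.36 without replicate 5 (adjusted p = 0.0417) and 0.84 without replicates 4 and 5 (adjusted p = 0.115). The call was lost without control replicate 1, 2, 3 or 4 or deleted replicate 4 (adjusted p = 0.0584 to 0.0786).

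*Fcgr1*, which encodes CD64, the receptor that the study used to gate macrophages, was at 3.92, 8.001, 8.05, 6.38 and 8.71 CPM in controls 1 to 5 and at 6.68, 7.71, 7.08, 12.8 and 29.9 CPM in deleted uteri 1 to 5. The first 3 deleted uteri were within the control range and averaged 1.02 times the control mean, and replicates 4 and 5 were above it. The log2 fold change was 0.87 (standard error 0.41, 95% interval -0.03 to 1.78, adjusted p = 0.209, exact permutation p = 0.222), and 0.29 without replicate 5. The difference was thus within the spread between uteri.

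The inhibitory receptor gene *Fcgr2b* was at 16.5, 12.5, 16.3, 21.2 and 20.6 CPM in controls 1 to 5 and at 23.1, 20.1, 20.4, 31.1 and 72.3 CPM in deleted uteri 1 to 5. Replicates 1, 4 and 5 were above every control, and replicates 2 and 3 were not. The log2 fold change was 0.94 (standard error 0.34, 95% interval 0.19 to 1.68, adjusted p = 0.105) and 0.44 without replicate 5 (adjusted p = 0.143). DESeq2 gave an adjusted p of 0.0394, and the exact permutation p of 0.0476 rose above 0.05 without control replicate 1, 2, 3 or 5 or deleted replicate 4 or 5 (exact permutation p = 0.0556 to 0.127). *Fcgr2b* and *Fcgr3* have nearly identical stretches, since 166 of 1733 windows of 50 bases (9.58%) in *Fcgr3* transcripts also occur in *Fcgr2b* transcripts, so a read pair that lies within them could not be assigned to 1 of the genes. Of the windows in *Fcgr2b* transcripts, 395 of 5685 (6.95%) occur in some other gene, and the other 4 genes share none. The antisense gene *Gm38204* overlaps 155 exonic bases of *Fcgr2b* and had at most 1 count in any library. *Mir6546* and *Gm26110* lie in introns of *Fcgr3* and *Fcgr4*, with at most 0 and 5 counts.

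*Fcer1g*, the signaling chain of all 3 activating receptors, was at 12.9, 18.6, 17.3, 14.3 and 18.6 CPM in controls 1 to 5 and at 16.5, 19.2, 20.3, 29.6 and 32.7 CPM in deleted uteri 1 to 5. All but replicate 1 were above every control. The log2 fold change was 0.53 (standard error 0.20, 95% interval 0.10 to 0.97, adjusted p = 0.110, exact permutation p = 0.0635), and 0.39 without replicate 5 (adjusted p = 0.199). Without deleted replicate 1, the only deleted uterus within the control range, the exact permutation p was 0.00794. That is the smallest value possible once the groups no longer overlap. In the same fit edgeR's test did not call the gene (adjusted p = 0.0608).

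*Fcgrt*, the gene of FcRn, went the other way. It was at 73.2, 96.6, 73.9, 69.3 and 84.7 CPM in controls 1 to 5 and at 56.7, 58.7, 47.5, 49.3 and 64.7 CPM in deleted uteri 1 to 5. The highest deleted uterus was below the lowest control. The log2 fold change was -0.52 (standard error 0.11, 95% interval -0.77 to -0.27, adjusted p = 0.0175, exact permutation p = 0.00794). The call held in 10 of 10 fits that each left out 1 uterus, with a log2 fold change between -0.59 and -0.45 (adjusted p = 0.0114 to 0.0407), and without replicates 4 and 5 together (-0.57, adjusted p = 0.0303). An antisense gene model, *Gm45669*, overlaps the gene but none of its exons.

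**Figure D2:**
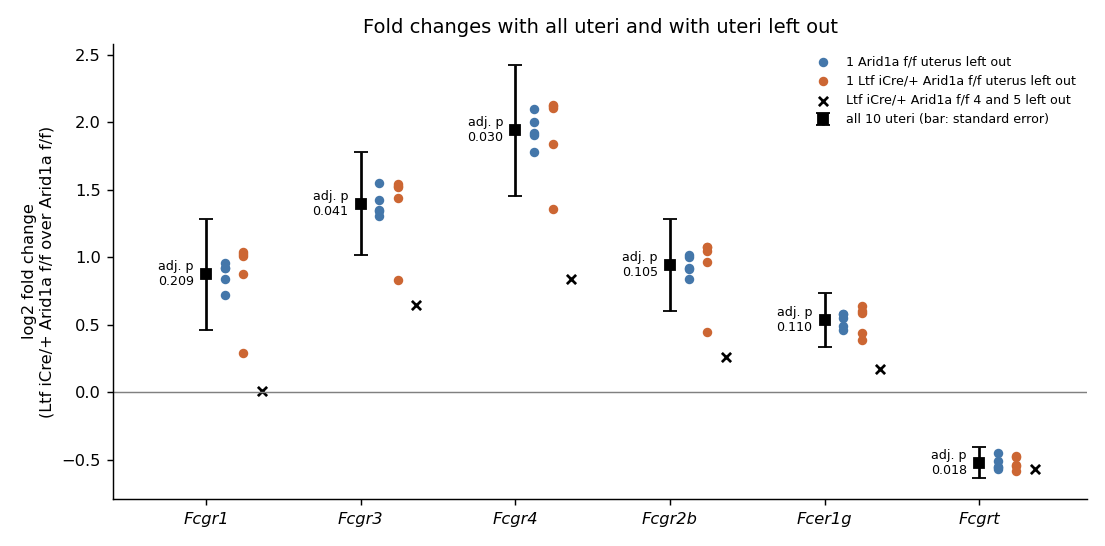
Log2 fold change of each gene (*Ltf iCre/+ Arid1a f/f* over *Arid1a f/f*) from all 10 uteri with its standard error and adjusted p (black squares), with 1 uterus left out (blue for a control, orange for a deleted uterus) and with deleted replicates 4 and 5 left out (crosses). The values of *Fcgrt* stay between -0.59 and -0.45, while that of *Fcgr3* goes from 1.40 to 0.83 without replicate 5.

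Levels of different genes were compared per length, in RPKM over all annotated exons. In control uteri *Fcgrt* was the highest at 37.8 ± 5.29 RPKM (SD, n = 5), followed by *Fcer1g* at 18.7 ± 3.00, *Fcgr3* at 7.58 ± 1.99, *Fcgr2b* at 3.01 ± 0.611, *Fcgr1* at 2.71 ± 0.747 and *Fcgr4* at 1.66 ± 0.551 RPKM. The ranges of the first 3 did not overlap with those of the next gene, whereas those of *Fcgr2b*, *Fcgr1* and *Fcgr4* did. In deleted uteri *Fcer1g* at 27.1 ± 8.10 RPKM and *Fcgrt* at 26.3 ± 3.36 RPKM overlapped, *Fcgr3* came to 19.9 ± 14.7 RPKM, and the ranges of *Fcgr4* at 6.37 ± 5.19, *Fcgr2b* at 5.77 ± 3.83 and *Fcgr1* at 4.96 ± 3.81 RPKM overlapped. Within each of the 5 deleted uteri *Fcgr2b* was nonetheless above *Fcgr1*, by a narrow margin (log2 ratio of *Fcgr1* to *Fcgr2b* -0.63 to -0.11). By group means *Fcgrt* thus made up 52.9% of the summed level of the 6 genes in controls and 29.1% in deleted uteri, and *Fcgr3* 10.6% and 22.1%. The deleted shares lean on replicate 5, where *Fcgr3* was at 45.9 RPKM against 11.2 to 17.7 RPKM in the other deleted uteri. The place of *Fcgr2b* depends on the length used, since its annotated exons add up to 5790 bases against 3544 in its longest coding transcript. With coding transcripts as the length *Fcgr2b* (9.43 CPM per kb) was above *Fcgr4* (6.37) and *Fcgr1* (4.96 CPM per kb) in deleted uteri. In controls its range on that length, 3.53 to 5.97 CPM per kb, no longer overlapped that of *Fcgr1*, 1.51 to 3.37 CPM per kb.

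**Figure D3:**
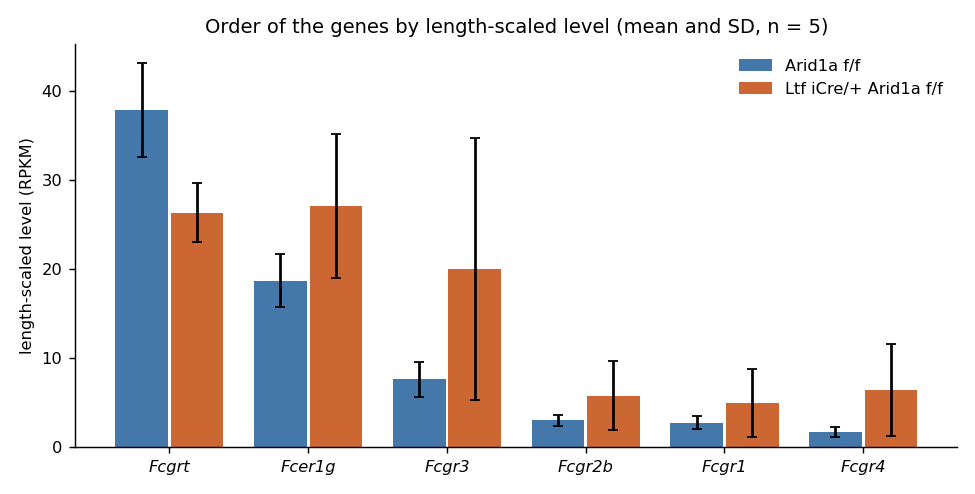
Length-scaled level (RPKM, bars from 0, with SD of 5 uteri) of the 6 genes in control and deleted uteri, ordered by the control mean. *Fcgrt* is well above *Fcer1g* in controls (37.8 and 18.7 RPKM) and overlaps it in deleted uteri (26.3 and 27.1 RPKM).

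The balance of activating and inhibitory receptors was described by log2 ratios of RPKM in each uterus, without a test. The sum of *Fcgr1*, *Fcgr3* and *Fcgr4* over *Fcgr2b* had a mean log2 ratio of 1.98 ± 0.292 in controls and 2.38 ± 0.180 in deleted uteri (SD, n = 5 each). In 4 of 5 deleted uteri it was above every control, and replicate 1 was within their range. The difference of the means was 0.40, and 0.30 without replicates 4 and 5. Singly, the ratio of *Fcgr4* to *Fcgr2b* separated the groups, at -1.28 to -0.58 in controls and -0.32 to 0.58 in deleted uteri. That of *Fcgr3* to *Fcgr2b* was above every control in 4 of 5 uteri, and that of *Fcgr1* to *Fcgr2b* in 0 of 5. Over the signaling chain *Fcer1g*, the sum of the activating receptors had a log2 ratio of -0.99 to -0.37 in controls and -0.36 to 0.95 in deleted uteri, with no overlap but a narrow gap, and the difference of 0.67 was 0.41 without replicates 4 and 5. *Fcgr3* over *Fcer1g* (mean difference 0.70 on the log2 scale) and *Fcgr4* over *Fcer1g* (1.17) did not overlap either, whereas *Fcgr1* over *Fcer1g* (0.16) did.

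The same was done against the summed level of 10 macrophage markers (*Adgre1*, *Csf1r*, *Cd68*, *Mertk*, *C1qa*, *C1qb*, *C1qc*, *Mrc1*, *Cd163* and *Folr2*). That sum was 96.1 to 188 RPKM in controls and 177, 165, 173, 232 and 397 RPKM in deleted uteri 1 to 5, so the first 3 uteri were within the control range. *Fcgr3* relative to the macrophage markers was higher in all 5 deleted uteri than in any control, with a mean difference of 0.72 on the log2 scale, and *Fcgr4* likewise with 1.19. The differences were 0.55 and 0.77 without replicates 4 and 5. For *Fcgr1* (0.18), *Fcgr2b* (0.29) and *Fcer1g* (0.02) the values overlapped. *Fcgrt* was lower relative to the same markers in all 5 uteri, by a mean of -1.005 on the log2 scale.

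Endothelium, epithelium and myeloid cells all carry FcRn, and their markers did not move together. The 5 endothelial markers all fell, their sum being 128 to 175 RPKM in controls and 54.6 to 84.8 RPKM in deleted uteri, with log2 fold changes from -1.26 to -0.72 (*Kdr*, a VEGF receptor). *Cdh5*, VE-cadherin, fell from 287 ± 31.9 to 119.6 ± 37.3 CPM (SD, n = 5 each, log2 fold change -1.26, adjusted p = 0.00421) and *Tek*, the angiopoietin receptor, from 94.6 ± 13.9 to 40.9 ± 4.59 CPM (-1.21, adjusted p = 0.000441). *Pecam1*, the adhesion molecule CD31, fell from 223 ± 32.98 to 117.6 ± 19.5 CPM (-0.93, adjusted p = 0.00273) and *Emcn*, endomucin, from 80.5 ± 4.47 to 43.4 ± 8.69 CPM (-0.89, adjusted p = 0.00273). With control replicate 2, 3 or 4 or deleted replicate 4 left out, 4 of the 5 passed. Relative to this sum *Fcgrt* was not lower. Its log2 ratio was -2.32 to -1.67 in controls and -1.86 to -0.83 in deleted uteri, 4 of which were above every control. Of 5 epithelial markers 4 rose, with a sum of 266 to 356 RPKM in controls and 376 to 772 RPKM in deleted uteri, and relative to it *Fcgrt* was lower in all 5 uteri (mean difference -1.20 on the log2 scale). The 4 that rose were *Epcam*, an adhesion molecule, from 88.6 ± 10.8 to 203 ± 113 CPM (SD, n = 5 each, log2 fold change 1.19, adjusted p = 0.0370), the keratin gene *Krt8* from 106 ± 14.96 to 194 ± 69.6 CPM (0.87, adjusted p = 0.0220), *Cdh1*, E-cadherin, from 237 ± 29.1 to 419 ± 105 CPM (0.82, adjusted p = 0.0106) and the keratin gene *Krt19* from 118 ± 21.1 to 202 ± 60.6 CPM (0.77, adjusted p = 0.0289). The count of epithelial markers that passed was 1 or 2 without control replicate 1, 2, 3 or 5. The part of cell composition in the fall of *Fcgrt* was not tested.

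**Figure D4:**
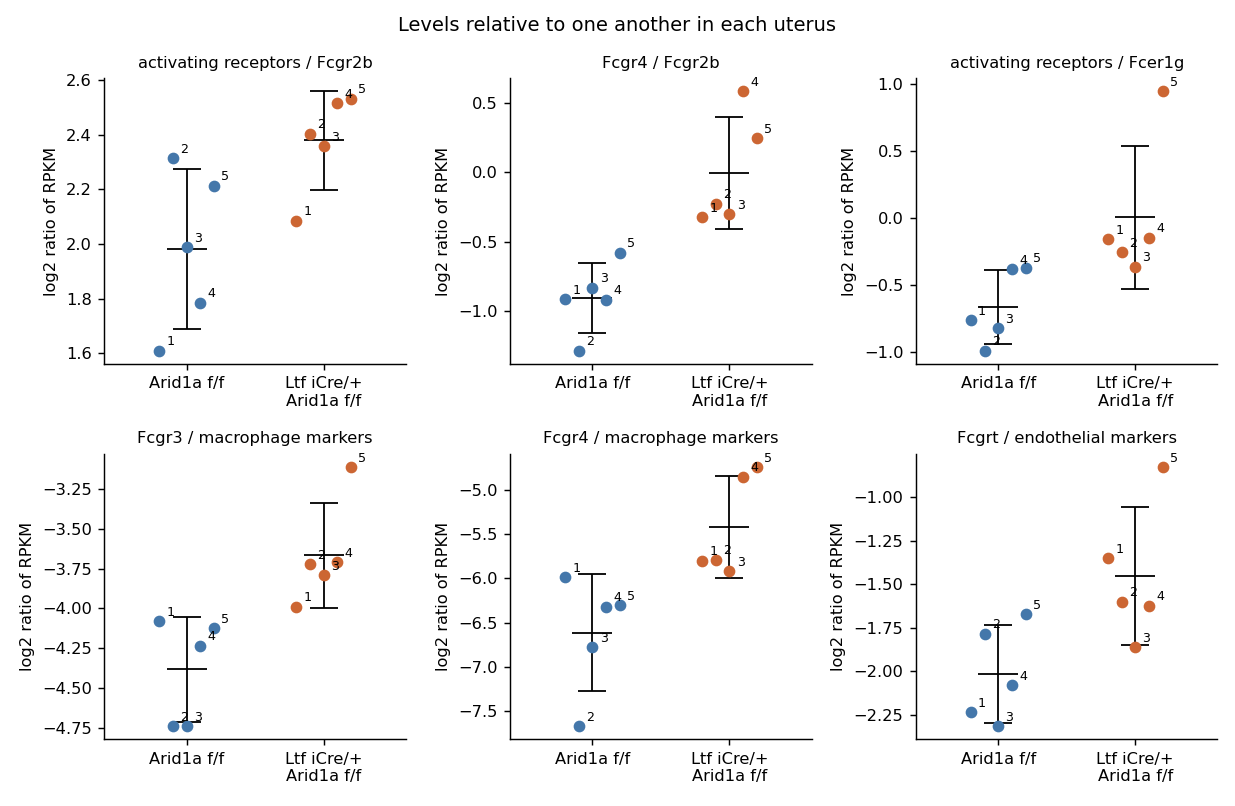
Log2 ratios of length-scaled levels in each uterus, with replicate numbers, means and SD (n = 5). *Fcgr4* over *Fcgr2b*, the activating receptors over *Fcer1g*, and *Fcgr3* and *Fcgr4* over the macrophage markers separate the groups, while the activating receptors over *Fcgr2b* and *Fcgrt* over the endothelial markers overlap, each with 4 of 5 deleted uteri above every control.

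Genes that signal below the activating receptors were taken from a list of 20 kinases, adaptors and effectors. Of these 4 rose and 0 fell, with a median log2 fold change of 0.52 against 0.03 over all tested genes. The median was 0.30 without deleted replicate 5, when 2 passed, and 0.15 without replicates 4 and 5, when 1 passed. *Vav1*, an exchange factor for Rac, rose from 9.75 ± 1.61 to 16.2 ± 5.24 CPM (SD, n = 5 each, log2 fold change 0.73, adjusted p = 0.0489). *Lcp2*, which encodes the adaptor SLP-76, rose from 11.8 ± 1.44 to 19.2 ± 4.85 CPM (0.70, adjusted p = 0.0278). *Pik3cd*, the leukocyte PI3-kinase delta, rose from 23.5 ± 1.82 to 33.7 ± 6.46 CPM (0.52, adjusted p = 0.0309), and *Prkcd*, protein kinase C delta, from 63.4 ± 2.81 to 86.0 ± 7.78 CPM (0.44, adjusted p = 0.00622). *Fyn*, a Src family kinase of many tissues, was at 119 ± 7.39 and 109 ± 11.6 CPM and did not pass (adjusted p = 0.379). The number called depended on single libraries. It was 1 without control replicate 1, 2, 3 or 4 or deleted replicate 4, and 2 without control replicate 5 or deleted replicate 3 or 5. It was 7 without deleted replicate 1 and 6 without replicate 2.

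The 6 genes of the inhibitory branch, the phosphatases *Inpp5d* (SHIP1), *Ptpn6* (SHP-1) and *Ptpn11* (SHP-2) and the Dok adaptors, had a median log2 fold change of 0.27, and 0 passed edgeR's test (1 had an unadjusted p under 0.05 and 1 passed with DESeq2). *Ptpn6* was at 22.6 ± 3.57 and 32.0 ± 7.55 CPM (adjusted p = 0.0855) and *Ptpn11* at 171 ± 21.5 and 184 ± 30.7 CPM (adjusted p = 0.646). In the phagocyte oxidase, which makes superoxide after receptor engagement, 1 of 6 genes rose (median log2 fold change 0.72, which was 0.40 without deleted replicate 5 and 0.16 without replicates 4 and 5). This was *Cyba*, the p22phox subunit, from 43.3 ± 4.197 to 75.8 ± 31.8 CPM (SD, n = 5 each, log2 fold change 0.81, adjusted p = 0.0386). *Cybb*, the catalytic subunit, was at 36.6 ± 8.62 and 60.3 ± 33.2 CPM (adjusted p = 0.161). Without any 1 of the controls, or without deleted replicate 1 or 4, 0 of the 6 oxidase genes passed.

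Of 3 other signaling chains 1 rose (median log2 fold change 0.82, and 0.26 without replicates 4 and 5). *Cd247*, the zeta chain of the T cell receptor, rose from 2.21 ± 0.520 to 5.28 ± 2.33 CPM (SD, n = 5 each, log2 fold change 1.26, adjusted p = 0.0286). *Tyrobp*, DAP12, was at 16.9 ± 4.68 and 29.8 ± 14.8 CPM and did not pass (adjusted p = 0.116). The call of *Cd247* was lost without any 1 of the controls or without deleted replicate 3 or 4. The summed level of 6 T cell markers was 5.12 to 6.19 RPKM in controls and 8.64 to 24.6 RPKM in deleted uteri, where 3 of them, *Cd3d*, *Cd3e* and *Cd3g*, rose by 2.07, 2.04 and 2.39 on the log2 scale (adjusted p = 0.00503, 0.00512 and 0.00676), and the part of T cells in the rise of *Cd247* was not tested. Of 9 other receptors that use the *Fcer1g* chain, 8 were tested and 0 passed (3 had an unadjusted p under 0.05, and 0 passed with DESeq2, which gave no adjusted p for *Clec4e* and *Clec4d*), with a median log2 fold change of 1.38. That median was 0.41 without deleted replicate 5 and 0.37 without replicates 4 and 5. *Clec4e*, which encodes Mincle, was at 0.439 ± 0.177 and 5.86 ± 12.3 CPM (adjusted p = 0.108) and *Ncr1*, NKp46, at 11.3 ± 2.74 and 9.60 ± 5.60 CPM (adjusted p = 0.765).

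Genes of other immunoglobulin receptors and their chains and Fc receptor-like genes did not pass edgeR's test in any of 13 cases (4 had an unadjusted p under 0.05 and 4 passed with DESeq2), with a median log2 fold change of 0.19. *Pigr*, the epithelial transporter of polymeric IgA, was at 33.7 ± 3.40 CPM in controls and 201 ± 325 CPM in deleted uteri (adjusted p = 0.0836), and *Trim21*, a cytosolic receptor for antibody, at 20.2 ± 2.14 and 23.0 ± 4.31 CPM (adjusted p = 0.430). Without control replicate 1, 2 passed, both lower. Without deleted replicate 2, 1 passed as higher and 1 as lower, and without replicate 3, 1 passed as higher. DESeq2 called 2 higher and 2 lower. The median was 0.12 without deleted replicate 5, -0.21 without replicates 4 and 5, and 0.35 to 0.37 without control replicate 1 or 5 or deleted replicate 2. The partner of FcRn, *B2m*, was at 629 ± 64.2 and 852 ± 265 CPM, a log2 fold change of 0.44 that did not pass (adjusted p = 0.168) and had the opposite sign to that of *Fcgrt*. *Alb*, the gene of its other cargo, was at or below 0.204 CPM on average in both groups. Neither of these FcRn partners passed (1 had an unadjusted p under 0.05, and 0 passed with DESeq2). Of 13 immunoglobulin constant chain and J chain genes 0 passed (1 had an unadjusted p under 0.05, and 0 passed with DESeq2). *Igha*, the heavy chain of IgA, which these receptors do not bind, was at 2340 ± 851 and 2358 ± 1597 CPM (adjusted p = 0.992), and *Igkc*, the kappa chain of every antibody class, at 1305 ± 474 and 1372 ± 907 CPM (adjusted p = 0.946). The heavy chains of IgG, the ligand of the receptors, were far lower and overlapped between the groups. *Ighg2c* was at 15.7 ± 7.02 and 27.7 ± 17.8 CPM (adjusted p = 0.218), *Ighg2b* at 14.5 ± 5.62 and 26.7 ± 19.0 CPM (adjusted p = 0.248), *Ighg1* at 5.69 ± 2.67 and 12.3 ± 17.4 CPM (adjusted p = 0.390) and *Ighg3* at 0.437 ± 0.316 and 0.767 ± 1.14 CPM (adjusted p = 0.609).

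Among 10 genes for cytokines and factors known to set the levels of Fc gamma receptors, 1 rose and 0 fell. In this list 5 had an unadjusted p under 0.05 and 3 passed with DESeq2. The median log2 fold change of 1.12 was 0.56 without deleted replicate 5 and 0.42 without replicates 4 and 5. *Tnf* rose from 0.583 ± 0.170 to 4.96 ± 6.44 CPM (SD, n = 5 each, log2 fold change 3.09, adjusted p = 0.0216). *Tgfb1*, the gene of an inhibitory cytokine, was at 26.1 ± 3.10 and 27.8 ± 3.46 CPM and did not pass (adjusted p = 0.684). *Spi1*, the gene of PU.1, was at 6.83 ± 0.908 and 12.98 ± 6.69 CPM, with no overlap between the groups. Its log2 fold change of 0.93 did not pass edgeR's test (adjusted p = 0.0556) but passed with DESeq2 (adjusted p = 0.01002). The number called was 0 without control replicate 2, 4 or 5 and 2 without deleted replicate 1, 2 or 5.

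Markers of the leukocytes that bear these receptors were counted beside them. Of 10 macrophage markers 0 passed (4 had an unadjusted p under 0.05 and 2 passed with DESeq2), with a median log2 fold change of 0.43 and *C1qa* at 49.2 ± 11.6 and 75.1 ± 28.6 CPM (adjusted p = 0.134). *C1qb* was at 44.0 ± 11.5 and 68.3 ± 28.8 CPM (adjusted p = 0.159). The median was 0.21 without deleted replicate 5 and 0.04 without replicates 4 and 5, and 0.29 without control replicate 1. Without deleted replicate 2, 1 marker passed as higher, without replicate 5, 1 passed as lower, and of the 2 that passed with DESeq2 *Cd68* was higher and *Mertk* lower. Of 6 inflammatory monocyte markers 1 rose, *Chil3* (0.0921 ± 0.0205 to 2.03 ± 3.63 CPM, adjusted p = 0.0409), a call lost without any 1 of the controls or without replicate 5. *Plac8* and *Ccr2*, the most abundant of this list, were at 316 ± 66.0 and 362 ± 188 CPM (adjusted p = 0.737) and at 68.1 ± 17.5 and 112 ± 40.4 CPM (adjusted p = 0.0897). The monocyte sum was 156 to 283 RPKM in controls and 122 to 459 RPKM in deleted uteri.
Of 10 neutrophil markers 2 passed, *Ly6g* (0.108 ± 0.0547 to 1.56 ± 2.20 CPM, adjusted p = 0.0294) and *Mmp8* (0.0546 ± 0.0302 to 3.58 ± 7.63 CPM, adjusted p = 0.0440). DESeq2 called *Ly6g* alone and gave no adjusted p for *Mmp8*, *S100a8* or *S100a9*. The median log2 fold change of 4.27 was 0.12 without replicate 5, when 1 passed. The most abundant of them, *S100a8* and *S100a9*, were at 58.4 ± 129 and 77.1 ± 171 CPM in deleted uteri (adjusted p = 0.0735 and 0.0813). The number passing was 0 without control replicate 2, 3, 4 or 5, 1 without control replicate 1, and 3 without deleted replicate 2 or 3. The part of neutrophils in the high *Fcgr3*, *Fcgr4* and *Fcgr2b* of replicate 5 was not tested, and in replicates 1 to 4 the neutrophil sum was within the control range while *Fcgr3* and *Fcgr4* were above every control. In control uteri that sum was led by *Retnlg* at 6.16 ± 5.42 CPM and *Csf3r* at 6.11 ± 1.86 CPM, and not every neutrophil marker was within the control range in replicates 1 to 4. *Mmp8* was at 0.110 CPM or more in all 5 deleted uteri and at 0.0852 CPM or less in every control.

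In the other leukocyte lists few genes passed. Of 9 dendritic cell markers 7 were higher and 2 lower, with a median log2 fold change of 0.65 (0.33 without deleted replicate 4). The 1 that passed was lower, *Zbtb46*, a factor of classical dendritic cells also made by endothelium (24.4 ± 1.63 to 16.2 ± 2.50 CPM, adjusted p = 0.0109). *Itgax* (CD11c) was at 12.02 ± 3.20 and 21.1 ± 7.92 CPM (adjusted p = 0.0708). In this list 4 had an unadjusted p under 0.05, and DESeq2 called 2 higher and 1 lower. The summed level had a median of 14.99 RPKM in controls and 20.99 RPKM in deleted uteri, with overlap. Without deleted replicate 1 or 2 the number passing was 2, 1 as higher and 1 as lower. Of 8 NK cell markers 0 passed (0 had an unadjusted p under 0.05, and 0 passed with DESeq2), with *Gzmb* at 12.2 ± 4.93 and 16.1 ± 12.6 CPM (adjusted p = 0.712). Their median log2 fold change was -0.22. It was 0.003 without deleted replicate 1, -0.53 without replicate 4 and -0.09 without replicate 5. Of 6 B cell markers 0 passed (1 had an unadjusted p under 0.05 and 1 passed with DESeq2), with *Cd79a* at 4.96 ± 1.68 and 5.13 ± 3.49 CPM (adjusted p = 0.965), *Cd79b* at 2.80 ± 0.991 and 6.32 ± 4.14 CPM (adjusted p = 0.114), and 1 passing without deleted replicate 2. Of 7 mast cell markers *Tpsab1* passed, at 0.0169 ± 0.0231 and 0.318 ± 0.307 CPM (adjusted p = 0.0298), while *Hdc* at 429 ± 40.3 and 356 ± 213 CPM (adjusted p = 0.740) and *Kit* at 62.3 ± 13.5 and 47.2 ± 21.04 CPM (adjusted p = 0.349) did not. *Hdc* and *Kit* were the 2 that were lower, and the other 5 were higher. The median log2 fold change was 0.97, and 0.32 without deleted replicate 5. No rise among the mast cell markers was called without control replicate 1, 2, 3 or 5 or deleted replicate 1 or 5, and without replicate 5, 1 of them passed as lower. Of 4 eosinophil markers 3 were tested and 0 passed (0 had an unadjusted p under 0.05, and 0 passed with DESeq2), with *Prg2* at 2.05 ± 1.10 and 1.77 ± 0.452 CPM (adjusted p = 0.768) and *Ccr3* at 3.11 ± 2.03 and 2.04 ± 1.11 CPM (adjusted p = 0.661).

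**Figure D5:**
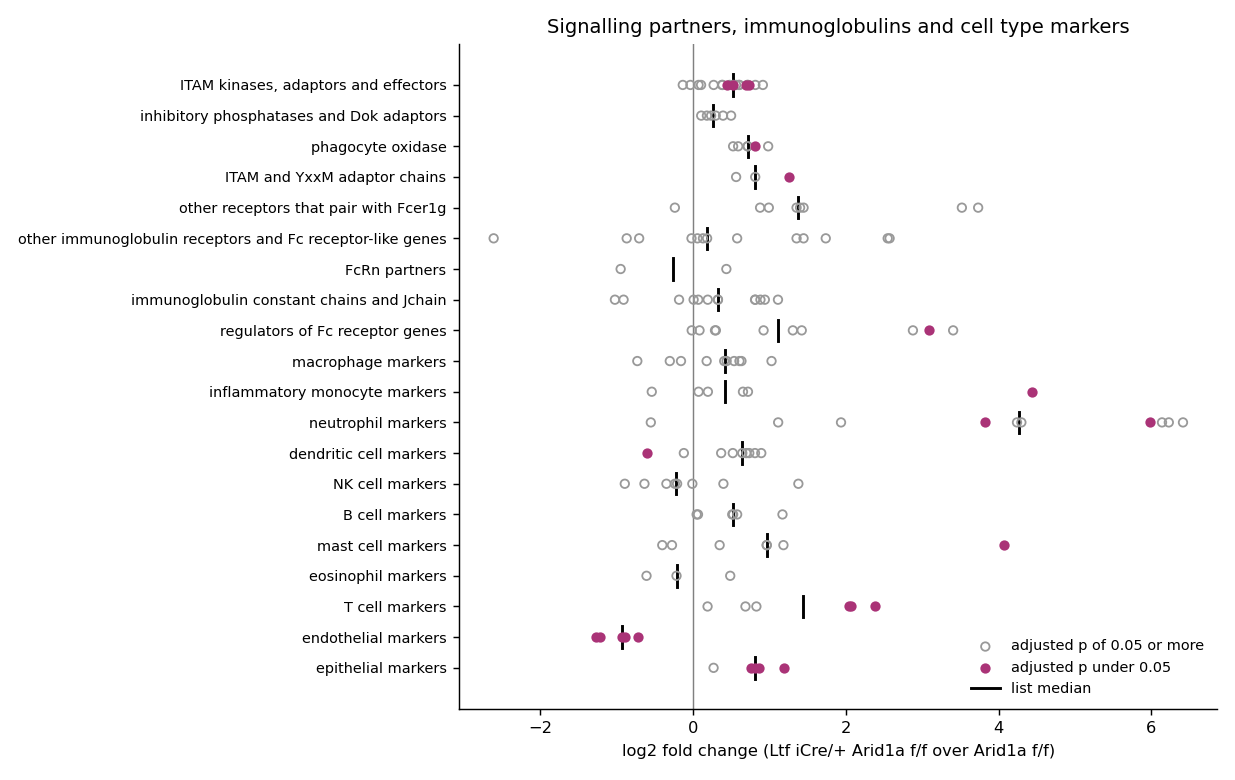
Log2 fold change (*Ltf iCre/+ Arid1a f/f* over *Arid1a f/f*) of every tested gene in the 20 lists, with filled points for an adjusted p under 0.05 and a bar at the list median. Endothelial markers lie to the left with all 5 filled, epithelial and T cell markers to the right with 4 and 3 filled, and the macrophage markers have 0 filled points around a median of 0.43.

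The genes whose log2 CPM was most like that of each gene over the 10 uteri were looked up among 14591 genes that averaged 100 counts or more, as a description. For *Fcgr1* these were *C3ar1* (Pearson's r = 0.99), a complement receptor, *Hk3* (0.98), a hexokinase of myeloid cells, and *Tlr13* (0.98), a sensor of bacterial RNA. For *Fcgr3* they were *Ms4a4a* (0.99), *Mpeg1* (0.98), the perforin-like protein of macrophages, and *Clec7a* (0.98), which encodes Dectin-1 and rose by 2.05 on the log2 scale (adjusted p = 0.0181). For *Fcgr4* they were *Aoah* (0.98), an enzyme that inactivates lipopolysaccharide, *Trpm2* (0.98), a calcium channel, and *Ptpre* (0.97), a tyrosine phosphatase. *Fcgr2b* was closest to *Igsf6* (0.98), *Mpeg1* (0.98) and *Rassf4* (0.98). *Fcer1g* was closest to *Hcls1* (0.98), an actin regulator of leukocytes, *Rac2* (0.97), a GTPase of the oxidase, and *Tyrobp* (0.97).

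*Fcgrt* was most like *Abhd4* (0.98), a lipase, *Rab5b* (0.96), a GTPase of early endosomes, and *Mxra8* (0.96), a surface protein of stromal cells. *Abhd4* and *Mxra8* also fell (log2 fold changes -0.31 and -0.39, adjusted p = 0.0373 and 0.0182), and *Rab5b* did not pass (adjusted p = 0.0763). Among the 6 genes themselves, *Fcgr4* and *Fcgr2b* (r = 0.95), *Fcgr3* and *Fcgr2b* (0.95) and *Fcgr3* and *Fcgr4* (0.95) were closest, and *Fcgrt* had negative values with the other 5, from -0.59 to -0.14. After the mean of each group was taken away, the values of *Fcgrt* with the others were 0.08 to 0.49. All these values rest on the same 10 libraries.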

How the data were processed

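Paired end mRNA libraries were made from the uteri of 10 mice at GD 3.5, 5 of them *Arid1a f/f* (control) and 5 *Ltf iCre/+ Arid1a f/f* (deleted), and read over 50 bases. The authors trimmed reads with cutadapt 1.18 and Trim Galore 0.6.4, checked them with FastQC 0.11.9, aligned them to GRCm38 with STAR 2.7.3a and deposited raw counts per gene from its GeneCounts mode, with no filter applied. The annotation release and strand setting are not given in the sources used here, so antisense reads cannot be told apart.

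Genes that averaged 1 count or more were fitted with edgeR 4.0.16 in R 4.3.3 (TMM, quasi-likelihood test by genotype, Benjamini-Hochberg adjustment over 25146 genes, threshold 0.05). The procedure was tested on simulated data. DESeq2 1.42.0 was an alternative. Exact permutation tests (252 arrangements, two-sided) used log2 CPM with a prior count of 2. Symbols, exons and lengths came from GENCODE M21 (45143 identifiers matched), promoters from RefSeq, where all 6 genes matched. RPKM is TMM CPM per kb of exon. Ratios were not tested. Drawings used matplotlib 3.10.9.

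The genes, lists and rules were chosen with earlier results of these data known, and the lists come from general knowledge (*Rac2*, *Ncr1*, *Fcer1a*, *Ms4a2* and *Fcrla* are in 2 each). In each list the text names up to 4 called genes with the largest changes and the 2 most abundant, and for each receptor gene the 3 genes most like it. The other abundant gene of the regulator list is not reported here. *Kdr*, *Mertk*, *Cd68*, *Retnlg*, *Csf3r*, *Clec4d*, *Spi1* and the IgG heavy chain genes were added after their values were seen. Alternatives were normalization, filter, test, a replicate block and each uterus left out. The omission of replicates 4 and 5 together, coding length and the ratios of *Fcgrt* to endothelial and epithelial markers were chosen after seeing the data. No pair of libraries of a group was alike within sampling noise (lowest chi-square per gene 33.34). The labels give the replicates as separate samples.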

Additional observations from a re-analysis of the deposited data

Results flagged for a closer look

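A total of 8 quantities (the 6 genes and 2 ratios) was examined in each genotype, and in 4 of the 8 groups of deleted uteri, which all hold replicate 5, that library was set apart from the rest by a gap that was large for the group's range (Dixon's ratio above 0.71). In the control groups none was set apart. Chance gives about 1 in 20 for a single group, but these are correlated values of the same libraries, so the 4 count as 1 library that stands apart. For *Fcgr1* it had 29.9 CPM against 12.8 CPM in the next uterus, a ratio of gap to range of 0.736. For *Fcgr3* it had 79.7 CPM against 30.8 CPM (0.811), and for *Fcgr2b* 72.3 CPM against 31.1 CPM (0.790). The log2 ratio of the activating receptors to *Fcer1g* was 0.95 in it and -0.14 in the next uterus (0.833). *Fcer1g* itself was not set apart in replicate 5, at 32.7 CPM against 29.6 CPM in replicate 4. The same library held the neutrophil marker sum of 1278 RPKM, and the part of that difference in these values was not tested.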

How the results depend on the processing

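The number of genes called over the whole table was 2438, 4103 with DESeq2, 1552 without deleted replicates 4 and 5 together and between 1204 and 2381 with 1 uterus left out (1204, 1248 and 1414 without control replicates 2, 3 and 4). The calls of *Fcgr3*, *Fcgr4* and *Fcgrt* held with DESeq2 (adjusted p = 0.00278, 0.000473 and 0.00156), other normalizations and other filters. *Fcgr2b* passed with DESeq2 alone (log2 fold change 0.94, adjusted p = 0.0394). With 1 uterus left out the log2 fold changes were 0.83 to 1.55 for *Fcgr3* (called in 4 of 10 fits) and 1.36 to 2.13 for *Fcgr4* (5 of 10), and -0.59 to -0.45 for *Fcgrt* (10 of 10), and without replicates 4 and 5 those of *Fcgr3* and *Fcgr4* were 0.65 and 0.84 and not called, while that of *Fcgrt* was -0.57 and still called (adjusted p = 0.0303). The cause was not tested. With the geometric mean of the macrophage markers in place of their sum, the differences of *Fcgr1* and *Fcer1g* relative to them were 0.47 and 0.31 in place of 0.18 and 0.02. The labels do not say whether replicate numbers pair the uteri. Deviations of same-numbered uteri correlated by -0.165 to 0.217, which cannot decide it without knowledge of the litters. With a replicate block 1704 genes were called, with log2 fold changes of 1.20 for *Fcgr3*, 1.68 for *Fcgr4* and -0.52 for *Fcgrt*, all still called. Their standard errors were 0.19, 0.29 and 0.08 with the block and 0.38, 0.49 and 0.11 without it. Among the counts of called genes in the lists under alternatives, 86 moved by more than 1.5 times or away from 0, and 254 did not. The latter include lists in which 0 genes were called in every setting, such as the NK cell markers. At this depth *Tpsab1*, *Chil3*, *Mmp8* and *Ly6g* rest on few reads in controls.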
